A study of Homo sapiens with 24 samples.

Results

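Iron uptake and storage were followed in 10 genes: SCARA5, TFRC, STEAP3, SLC11A2, FTH1, FTL, NCOA4, SLC40A1, IREB2 and ACO1. The members were all probes that the array files name for these genes, 17 of 34127 on the array. All 17 passed the filter on dim probes, which kept 23827 probes whose signal was clearly above background in every replicate of some group. SCARA5 probe 2 passed it through 1 of the 8 groups, SLC40A1 through 7 and the other 15 probes through all 8. SCARA5 was chosen by its measured values, the rise of 1 of its probes after 6 h of Pirfenidone in H1975 cells, so its values in that comparison are given as a description without a test. The other 9 genes were listed for their role in iron handling. A549 and H1975 are human lung adenocarcinoma cell lines, and each received Pirfenidone, an anti-fibrotic drug, at 0.75 mg/ml or PBS as control, over 6 h or over 24 h. The 8 groups of cell line, treatment and time held 3 arrays each, 24 in all, and each array measured Cy3-labelled RNA of 1 sample. The labels do not say that the 3 replicates of a group were separate cultures, so p-values measure the spread between these samples. As in any bulk RNA sample, fewer cells that carry a transcript and less transcript per cell cannot be told apart.

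Iron reaches most cells as transferrin, which binds the transferrin receptor TFRC and is taken into endosomes. There the reductase STEAP3 converts ferric to ferrous iron and SLC11A2 carries it into the cytosol. Iron that is not used is stored in ferritin, a shell of heavy chains (FTH1) and light chains (FTL), until NCOA4 takes ferritin to the lysosome, or it leaves the cell through ferroportin (SLC40A1). SCARA5, a class A scavenger receptor, binds ferritin at the surface and brings in iron without transferrin. IREB2 and ACO1 encode the iron regulatory proteins, which bind stem-loops called iron-responsive elements in messenger RNAs: they hold back translation of both ferritin chains and stabilise the TFRC transcript when iron is low. Arrays read the transcript and not the protein.

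Sequences are shown for the stem-loop site of the FTL transcript, since it is the letters through which the iron regulatory proteins meet ferritin, and for 3 of the 7 probes of FTL, FTH1 and STEAP3, 1 for each gene, on which the changes described below can be followed. The FTL site lies at chr19:48965336-48965357 (GRCh38.p14, plus strand, RefSeq), 28 to 49 bases into the gene, with the CAGTG of its loop in capitals. The probes are given with the array's hg19 positions, and each was read on the same strand as its transcript.
FTL iron-responsive element: tcttgcttcaaCAGTGtttgga
FTL probe 2: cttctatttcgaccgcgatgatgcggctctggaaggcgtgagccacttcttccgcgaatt
FTH1 probe 1: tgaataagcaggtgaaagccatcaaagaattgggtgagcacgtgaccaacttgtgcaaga
STEAP3 probe 2: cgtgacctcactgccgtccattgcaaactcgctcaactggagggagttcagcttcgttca
FTL probe 2 covers chr19:49469029-49469088 on the plus strand (bases 303 to 362 of NM_000146). FTH1 probe 1 covers chr11:61732276-61732335 on the minus strand (bases 650 to 709 of NM_002032). STEAP3 probe 2 covers chr2:120012364-120012423 on the plus strand (bases 1628 to 1687 of NM_182915). Both ferritin genes have many near-identical processed copies in the genome, and the part of such copies in the ferritin signals is uncertain.

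RefSeq windows from 250 bases before to 50 bases after a gene start were at hand for 8 of the 10 genes, 13 windows in all. The stem-loop letters, a C followed after 5 further bases by CAGTGN and read on the sense strand, were found in 1 of the 13, that of FTL, and in 10.1% of all 35116 windows. Within the last 50 bases alone 1.67% of all windows held them. FTH1 and SCARA5 had no window, and each window reaches only the first 50 bases of its gene. The search therefore cannot show whether members other than FTL carry the element further along their transcripts. The antioxidant response element TGACNNNGC, searched on both strands, was in 1 of the 13 windows (NCOA4) and in 13.3% of all. The ATF4 element TGATGNAA, also on both strands, was in 1 of the 13 (SLC11A2) and in 3.62% of all. No 2 of these motifs shared a window among the members.

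Values below are normalized log2 signals, the log2 of the background-corrected signal minus the 75th percentile of the same array, so that 0 is the level of that percentile. A probe was called where the Benjamini-Hochberg adjusted p of limma's moderated test, fitted over all 24 arrays and adjusted over 23827 probes, was at most 0.05 and the log2 change was at least 1 in size. Errors of group means are SD (n = 3) and errors of changes are SE. On each array 62.7% to 69.5% of probes were well above background, and no member probe was saturated. The arrays were run in 4 sets with a common date, here called runs, on 7 slides. The keratins KRT8, KRT18 and KRT19, EPCAM and CDH1, all epithelial markers, were above background on all 12 arrays of both lines. Each marker was read on the probe of its gene with the highest mean. Of 9 markers of other cell types, CD14, CDH5, COL1A1 and PTPRC were above background on at least 11 of 12 arrays of both lines and CD3E on 1 H1975 array. Of their probes the filter on dim probes kept 1 of 5 for PTPRC, 2 of 3 for PECAM1 and 1 of 2 for HBB. COL1A2, PDGFRB and PECAM1 were above background on 12 of 12 H1975 arrays and 0 of 12 A549 arrays, and HBB on 11 of 12 A549 arrays and 0 of 12 H1975 arrays. Their part in the differences between the lines was not tested. The A549 pair of replicate 3 at 24 h stood apart. Over 52 genes of the G2/M phases, its median difference of Pirfenidone minus PBS was 1.30, with 0 of 52 genes lower, against -0.21 and -0.69 in the other two pairs, with 51 and 50 genes lower. The drug changes in A549 at 24 h are therefore given with and without both arrays of this pair.

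SCARA5 probe 1 had the widest range of all member probes within each line. Probe 1 (NM_173833, chromosome 8, 27727875 to 27727934, minus strand) was well above background on all 24 arrays. In H1975 with PBS at 6 h its normalized log2 signals were -6.51, -5.96 and -6.18, and after 6 h of Pirfenidone they were -3.74, -3.62 and -3.54. With PBS at 24 h they were -4.98, -4.68 and -5.42, and after 24 h of Pirfenidone -2.78, -2.76 and -2.90. All 4 H1975 groups were separate from each other on this probe, in the order PBS 6 h, PBS 24 h, Pirfenidone 6 h and Pirfenidone 24 h. The 6 h change, which led to the choice of the gene, was 2.58 ± 0.47, a 5.99-fold rise of the signal, and was the 7th highest change among all tested probes.

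The rule of that choice used no arrays of 24 h, but the line and drug were the same and earlier results of these data were known. At 24 h SCARA5 probe 1 rose by 2.22 ± 0.47, 4.65-fold (95% interval 1.22 to 3.21 on the log2 scale, adjusted p = 0.0121), and the change was 2.53, 2.20 and 1.92 within runs 1, 3 and 4. It lost its call without replicate 3 of the PBS group (2.02, adjusted p = 0.0530) and without replicate 3 of the Pirfenidone group (2.26, adjusted p = 0.0585), and with another background correction, normexp, which gave 1.67 and an adjusted p of 0.0980. The 24 h change minus the 6 h change in H1975 was -0.37 ± 0.67, given without a test. Without the drug, the PBS arrays of 24 h were above those of 6 h by 1.19 ± 0.47, which did not pass (adjusted p = 0.345). That comparison shares its 6 h arrays with the one that chose the gene.

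In A549 the same probe was far brighter and varied more among replicates. The PBS arrays gave -0.38, -1.30 and -1.59 after 6 h, and -0.65, -0.91 and 0.87 after 24 h. The Pirfenidone arrays gave -0.29, -1.66 and -1.36 after 6 h, and 0.32, 0.78 and -1.11 after 24 h. The 4 A549 groups overlapped throughout, and each A549 array lay above each H1975 array: the A549 arrays ranged from -1.66 to 0.87 and the H1975 arrays from -6.51 to -2.76. The drug changes were -0.01 ± 0.47 at 6 h (95% interval -1.01 to 0.98) and 0.23 ± 0.47 at 24 h (-0.77 to 1.22), and neither passed (adjusted p = 1 for both). The 24 h mean joined opposite values, since the change within runs was 0.97 in run 2, 1.68 in run 3 and -1.98 in run 1, the run of replicate 3. Without both arrays of that pair the change was 1.33, which did not pass (adjusted p = 0.296). The test of the difference between the lines at 24 h gave 1.99 ± 0.67 (adjusted p = 0.213) with all arrays and 0.89 (adjusted p = 0.836) without the pair, so a difference in the response of the lines was not shown.

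**Figure D1:**
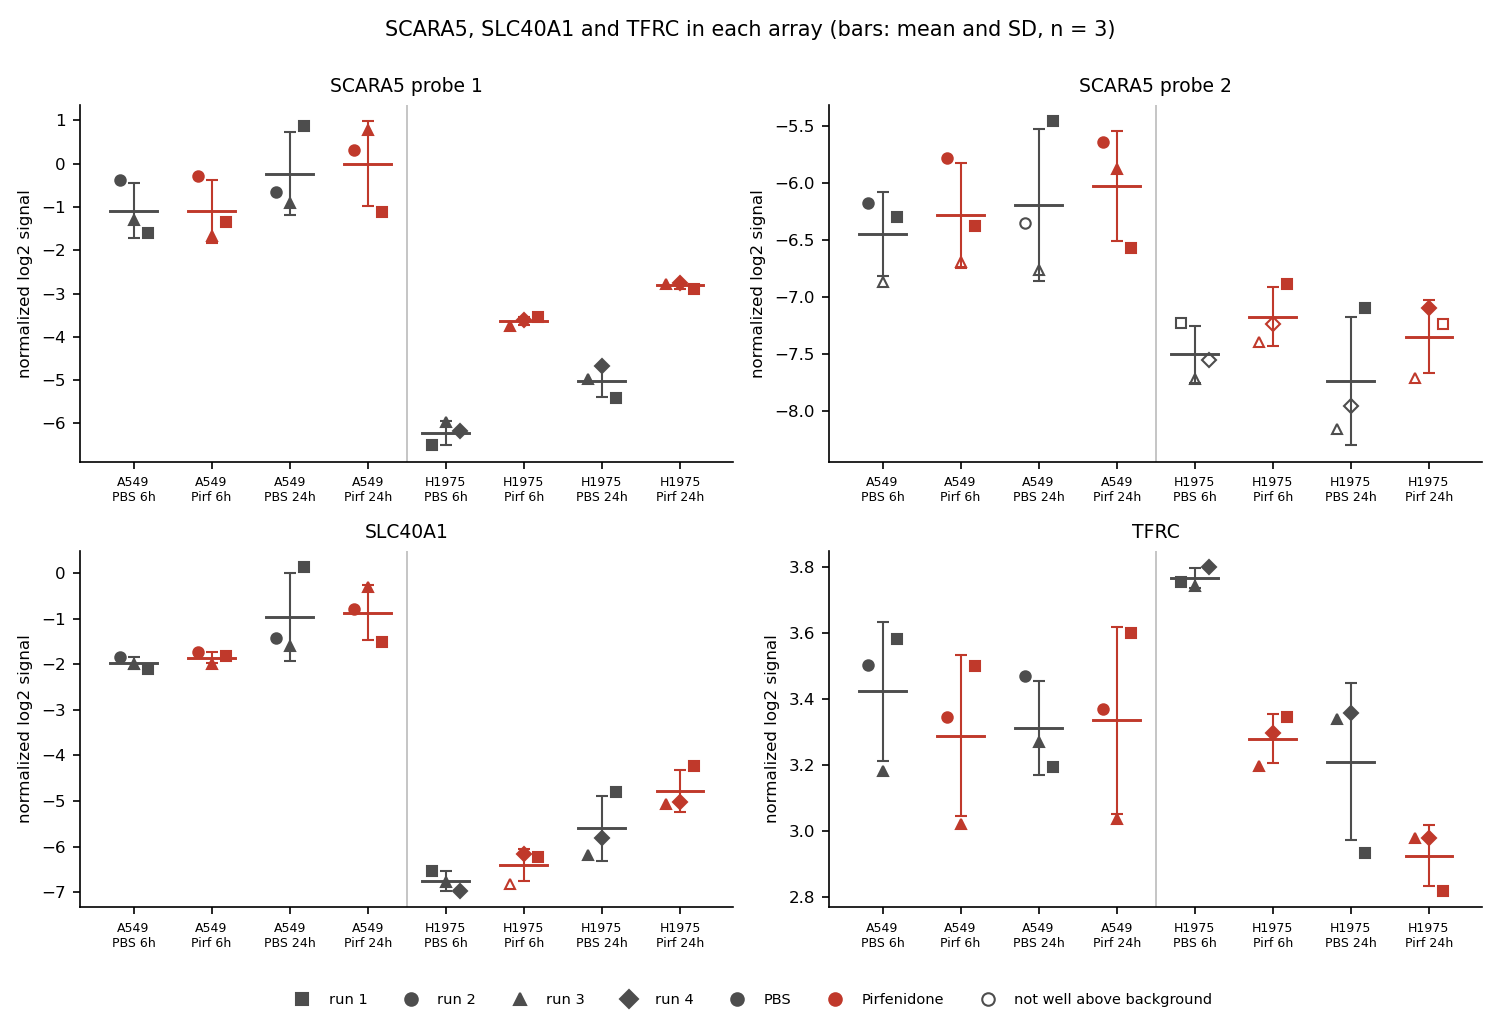
Normalized log2 signal of both SCARA5 probes, SLC40A1 and TFRC on each of the 24 arrays, in 8 groups of 3; marker shapes give the run, filled markers are well above background, lines are group means and bars are SD. SCARA5 probe 1 separates the 4 H1975 groups, while in A549 at 24 h the squares of run 1 lie on the other side of the other two replicates for SCARA5 probe 1 and SLC40A1.

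SCARA5 probe 2 (ENST00000518030, chromosome 8, 27762245 to 27762304, minus strand) lies at another transcript and was close to background. It was well above background on all 3 arrays in 1 group, A549 with Pirfenidone at 24 h, and on 0 of 3 arrays of H1975 with PBS at 6 h. In H1975 its values were -7.23, -7.72 and -7.55 with PBS and -7.39, -7.24 and -6.89 with Pirfenidone at 6 h, and -8.16, -7.96 and -7.10 with PBS and -7.71, -7.10 and -7.24 with Pirfenidone at 24 h. The groups overlapped at both times, and the 24 h change was 0.39 ± 0.34 (adjusted p = 0.574, 95% interval -0.33 to 1.11). In A549 its changes were 0.16 ± 0.34 at 6 h and 0.16 ± 0.34 at 24 h, the latter 0.80 without the replicate 3 pair (adjusted p = 0.544). In H1975 probe 2 was above background on 3 of 12 arrays, and whether the low signal bears on the difference between the probes was not tested. The mean of both probes changed by 1.30 ± 0.36 in H1975 at 24 h (adjusted p = 0.0389).

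Between the lines with PBS, SCARA5 probe 1 was lower in H1975, with a log2 difference from A549 of -5.13 ± 0.47 at 6 h (34.9-fold, given without a test) and -4.80 ± 0.47 at 24 h (27.9-fold, adjusted p = 5.03e-08). The 6 h difference rests on the PBS arrays that the choice of the gene used. Without the replicate 3 pair the 24 h difference was -4.25. Probe 2 was near background in these groups. It passed the filter on dim probes only through an A549 group, so its differences between the lines are a description. At 24 h it was above background on 1 of 3 arrays of each line, and the fitted difference was -1.55 ± 0.34, given without a test. At 6 h it was above background on 2 of 3 A549 arrays and 0 of 3 H1975 arrays, and the fitted difference was -1.05 ± 0.34, also given without a test. No fold is given for probe 2, since arrays of both lines were not above background. Probe 2 is among the called probes counted below, and with normexp correction both of its calls were lost.

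The next members take up iron from transferrin. TFRC was read by 1 probe spotted 10 times (chr3:195776593-195776652, minus strand). In H1975 its normalized log2 signals at 6 h were 3.75, 3.74 and 3.80 with PBS and 3.20, 3.30 and 3.34 with Pirfenidone, so the groups did not overlap. The change of -0.49 ± 0.16 did not pass (adjusted p = 0.163, 95% interval -0.81 to -0.16). At 24 h the values were 3.34, 3.36 and 2.94 with PBS and 2.98, 2.98 and 2.82 with Pirfenidone, which overlapped, with a change of -0.28 ± 0.16 (adjusted p = 0.301). The PBS groups of H1975 themselves differed by -0.55 ± 0.16 from 6 h to 24 h without overlap, which did not pass either (adjusted p = 0.117). In A549 the TFRC changes were -0.13 ± 0.16 at 6 h and 0.02 ± 0.16 at 24 h, and the latter was -0.17 without the replicate 3 pair. The difference between the lines in the 6 h change was -0.35 ± 0.22 (adjusted p = 1).

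STEAP3, the endosomal reductase, was higher on 1 of its 2 probes after 24 h of the drug in H1975. Probe 2, shown above, gave -0.29, -0.28 and -0.06 with PBS and 0.26, 0.17 and 0.72 with Pirfenidone in H1975 at 24 h. All Pirfenidone arrays were higher, and the change of 0.59 ± 0.15 passed the adjusted p (0.0268) but not the fold limit. Within runs 1, 3 and 4 it was 0.78, 0.55 and 0.45. The adjusted p was lost without replicate 3 of the Pirfenidone group (change 0.43, adjusted p = 0.174) and without replicate 1 or 2 of the PBS group (0.0972 and 0.0815). It was also lost with normexp (0.0743) and with a fit of these 6 arrays alone (0.119). At 6 h the values were -0.27, -0.32 and -0.43 with PBS and 0.10, -0.07 and 0.01 with Pirfenidone, again without overlap, and the change of 0.35 ± 0.15 did not pass (adjusted p = 0.369). Probe 1 (chr2:120022998-120023057, plus strand), at bases from 4054 of the same transcript, changed by 0.28 ± 0.15 at 24 h (adjusted p = 0.290), with all Pirfenidone arrays above the PBS arrays. The mean of both probes changed by 0.44 ± 0.13 (adjusted p = 0.0568). In A549, both probes changed by -0.03 to 0.07 at the 2 times, and at 24 h by 0.10 and 0.15 without the replicate 3 pair. Over the lines, the 24 h change of probe 2 differed by 0.62 ± 0.21 (adjusted p = 0.220).

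SLC11A2, which moves ferrous iron out of the endosome, did not pass in any drug comparison. Its largest change was in A549 at 6 h on probe 1, a probe that spans chr12:51382184-51384602 on the minus strand. There the values were -1.07, -1.05 and -1.02 with PBS and -0.79, -0.70 and -0.59 with Pirfenidone. The groups did not overlap, yet the change of 0.36 ± 0.19 did not pass (adjusted p = 0.926). Probe 2 changed by 0.02 ± 0.13 in the same comparison. At 24 h in A549 the probes changed by 0.02 ± 0.19 and 0.07 ± 0.13, and by 0.20 and 0.07 without the replicate 3 pair. In H1975 probe 1 changed by 0.16 ± 0.19 at 6 h and 0.09 ± 0.19 at 24 h, and probe 2 by -0.20 ± 0.13 and 0.24 ± 0.13, with adjusted p from 0.290 to 0.893.

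Of the storage chains, FTL rose with the drug in H1975 at 24 h and FTH1 did not pass. Probe 2 gave 4.80, 4.93 and 4.59 with PBS and 5.21, 5.31 and 5.44 with Pirfenidone. Probe 1 (chr19:49468731-49468790, plus strand) gave 4.68, 4.77 and 4.49 with PBS and 5.11, 5.18 and 5.28 with Pirfenidone. On both probes all Pirfenidone arrays lay above all PBS arrays. The changes were 0.55 ± 0.11 for probe 2 (1.46-fold, adjusted p = 0.0109) and 0.54 ± 0.12 for probe 1 (1.45-fold, adjusted p = 0.0152), past the adjusted p and below the fold limit. Within runs 1, 3 and 4 probe 2 changed by 0.85, 0.42 and 0.38. Both probes lost the adjusted p without replicate 3 of either group (0.0552 to 0.0924). Probes 2 and 1 also lost it with normexp (0.0576 and 0.0709) and with a fit of these 6 arrays alone (0.0812 and 0.0702). At 6 h FTL changed by 0.19 ± 0.12 and 0.20 ± 0.11 in H1975 with overlapping groups. In A549 its changes lay between -0.05 and 0.03 at both times, on both probes, and without the replicate 3 pair the 24 h changes were 0.05 on probe 1 and 0.10 on probe 2 (adjusted p = 0.985 and 0.943). The difference of the 24 h changes between the lines was 0.51 ± 0.16 for probe 2 (adjusted p = 0.191).

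FTH1, the heavy chain, was read by 3 probes. In H1975 at 24 h probe 1 gave 6.22, 6.33 and 6.52 with PBS and 6.47, 6.54 and 6.86 with Pirfenidone. These values overlapped, and the change of 0.26 ± 0.11 did not pass (adjusted p = 0.163). Probe 3 (chr11:61732071-61732130) changed by 0.23 ± 0.11 without overlap (adjusted p = 0.222), and probe 2 (chr11:61732038-61732096) by 0.00 ± 0.12 (adjusted p = 0.991). At 6 h in H1975 the 3 probes changed by 0.21 ± 0.11, 0.18 ± 0.12 and 0.20 ± 0.11, and in A549 all FTH1 changes lay between -0.07 and 0.02, or at 24 h without the replicate 3 pair between 0.02 and 0.09. NCOA4, the ferritin receptor of autophagy, changed by -0.05 ± 0.11 and -0.08 ± 0.24 on its probes in H1975 at 24 h and by -0.10 to 0.07 at 6 h over both lines. In A549 at 24 h probe 2 changed by -0.23 ± 0.24 (adjusted p = 1), with replicate 2 of the treated group, at -2.29, below all other A549 arrays, and probe 1 by -0.04 ± 0.11. Without the replicate 3 pair these changes were -0.33 and 0.08.

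**Figure D2:**
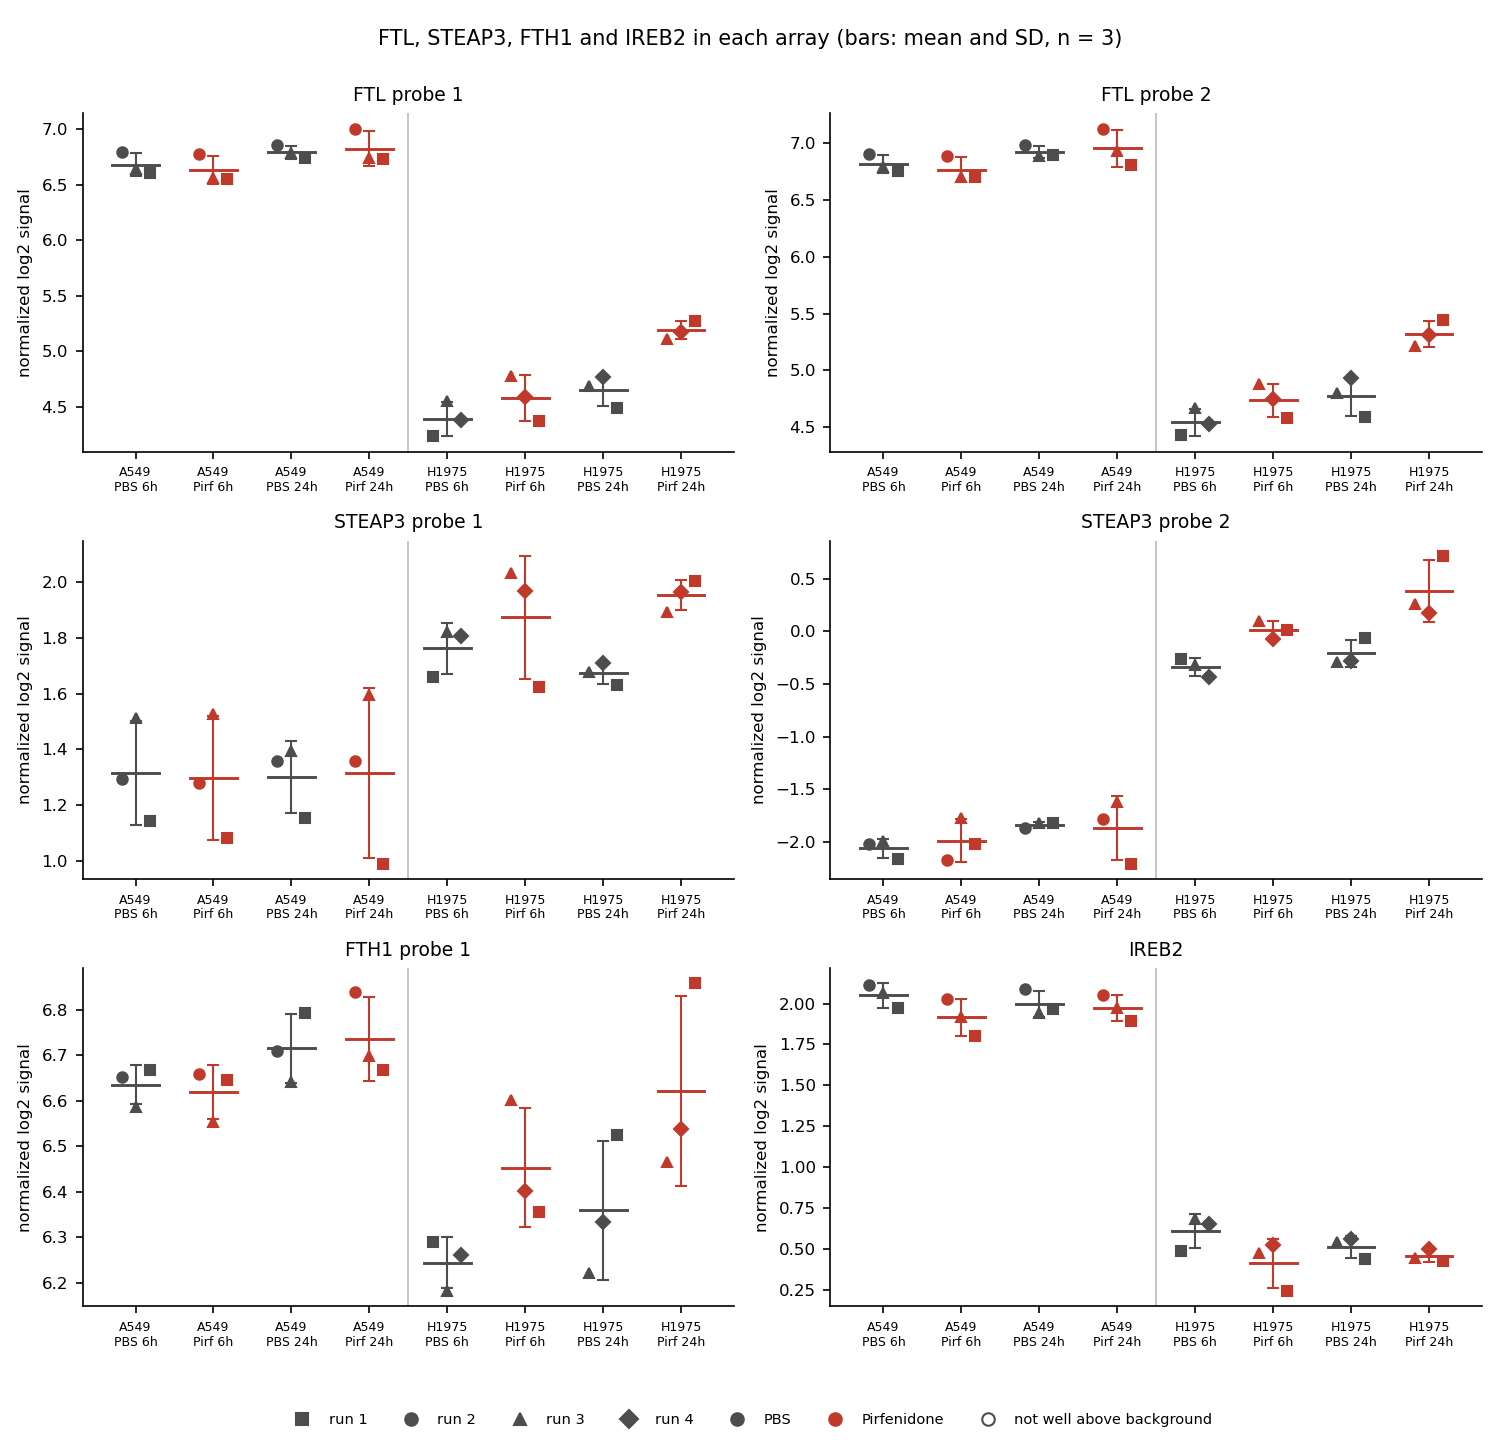
Normalized log2 signal of FTL, STEAP3, FTH1 probe 1 and IREB2 on each of the 24 arrays, in 8 groups of 3; marker shapes give the run, lines are group means and bars are SD. Both FTL probes and both STEAP3 probes show all H1975 Pirfenidone arrays of 24 h above the PBS arrays, and FTL and IREB2 lie lower in H1975 than in A549 on all arrays.

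SLC40A1, the iron exporter, was read by 1 probe spotted 10 times (chr2:190425750-190425809, minus strand). In H1975 its values were -6.54, -6.78 and -6.97 with PBS and -6.81, -6.16 and -6.23 with Pirfenidone at 6 h, with 2 of the 3 treated arrays above background. At 24 h they were -6.19, -5.82 and -4.80 with PBS and -5.07, -5.02 and -4.24 with Pirfenidone. The groups overlapped, since the PBS array of replicate 3 was the highest of its group, and the change of 0.83 ± 0.41 did not pass (adjusted p = 0.242), though it was positive within runs 1, 3 and 4, at 0.57, 1.13 and 0.79. In A549 at 24 h SLC40A1 showed the same split as SCARA5. It gave -1.42, -1.60 and 0.14 with PBS and -0.79, -0.30 and -1.51 with Pirfenidone. The change was 0.64 in run 2, 1.30 in run 3 and -1.65 in run 1, with a mean of 0.10 ± 0.41 (adjusted p = 1) and 0.97 (adjusted p = 0.426) without the replicate 3 pair. At 6 h in A549 it changed by 0.12 ± 0.41. From 6 h to 24 h in PBS it differed by 1.01 ± 0.41 in A549 and 1.16 ± 0.41 in H1975, without overlap in either line, and neither passed (adjusted p = 0.514 and 0.248). The A549 value was 0.46 without the pair.

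**Figure D3:**
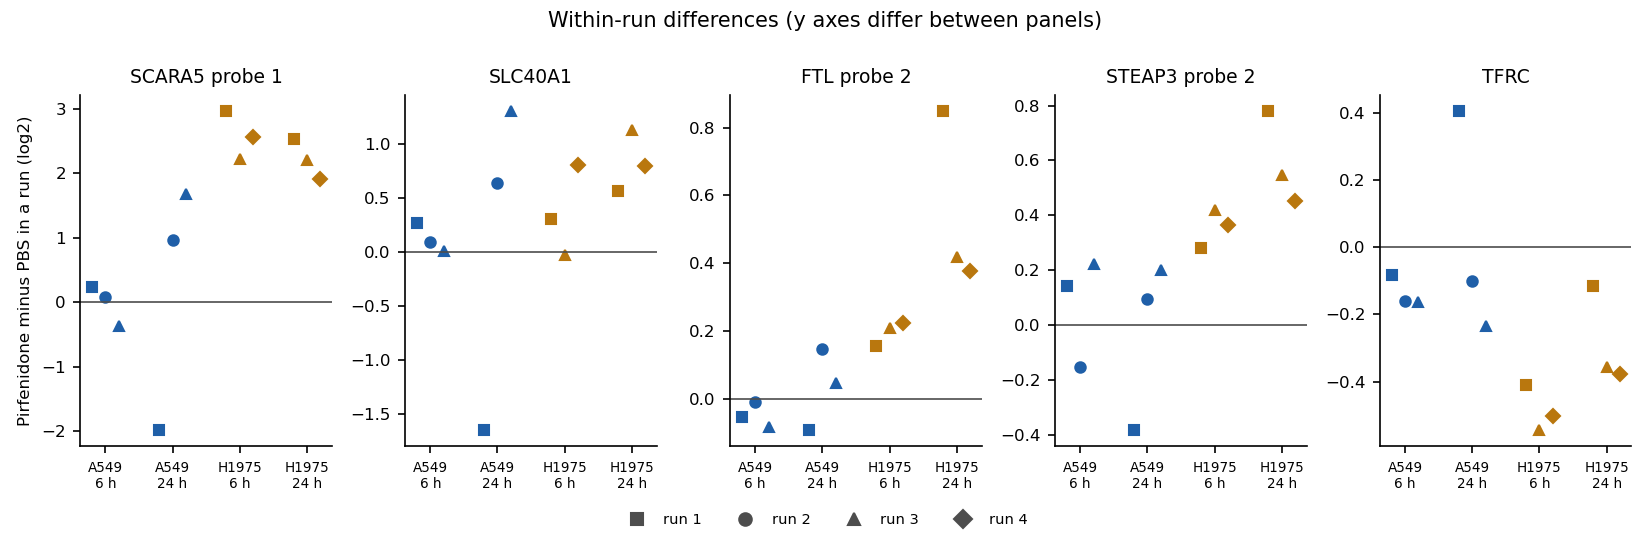
Pirfenidone minus PBS within each run, on the log2 scale, for SCARA5 probe 1, SLC40A1, FTL probe 2, STEAP3 probe 2 and TFRC; each marker is 1 treated array minus the PBS array of the same line, time and run, and the y axes differ between panels. In A549 at 24 h the square of run 1 lies apart from runs 2 and 3 on the other side of 0, at -1.98 for SCARA5 probe 1 and -1.65 for SLC40A1, while the H1975 markers of 24 h agree in sign on each panel.

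The transcripts of the iron regulatory proteins changed little with the drug. IREB2 (chr15:78793507-78793566, plus strand) changed by -0.13 ± 0.10 and -0.03 ± 0.10 in A549 and by -0.19 ± 0.10 and -0.06 ± 0.10 in H1975 at 6 h and 24 h. ACO1 (chr9:32450545-32450604, plus strand), whose protein is also the cytosolic aconitase, changed by 0.06 ± 0.11 and 0.00 ± 0.11 in A549 and by 0.09 ± 0.11 and 0.20 ± 0.11 in H1975. None of these passed (adjusted p from 0.315 to 1). Without the replicate 3 pair the A549 changes at 24 h were 0.00 for IREB2 and 0.20 for ACO1 (adjusted p = 1 and 0.678).

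Counted over the 17 probes, Pirfenidone called 0 in A549 at 6 h, where 0.176% of all tested probes were called, and 0 in A549 at 24 h, where 0.0126% were. The main counts and medians that use A549 at 24 h include the replicate 3 pair. Without that pair SCARA5 probe 1 changed by 1.33 there (adjusted p = 0.296) and SLC40A1 by 0.97 (adjusted p = 0.426). At an unadjusted p under 0.05, 0 of the 15 probes other than SCARA5 passed in A549 at either time. The test paired by run, listed among the alternatives, kept the fold limit. No member change in A549 reached that limit, so this test could not call a member there. In H1975 at 6 h SCARA5 is left out, since the choice rested on it there, and 0 of the 15 other probes were called, beside 0.491% of all probes, with 2 of the 15 at an unadjusted p under 0.05. In H1975 at 24 h, where 1.89% of all probes were called, 1 of 17 was called higher, SCARA5 probe 1, beside 0.89% of all probes, and 0 lower beside 1%. Without SCARA5, which was chosen in the same line and drug, 0 of 15 were called. By adjusted p alone, 4 of 17 were higher at 24 h, beside 2.91% of all probes, and 0 were lower, beside 3.35%. These 4 were SCARA5 probe 1, both FTL probes and STEAP3 probe 2, hence 3 genes. Without SCARA5, 3 of 15 were higher by adjusted p alone and 0 lower.

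Groups without overlap were also counted. At 24 h in H1975 they were 7 higher, SCARA5 probe 1 among them, and 0 lower of 17, beside 16.3% and 15.6% of all probes. At 6 h, without SCARA5, they were 2 higher and 2 lower of 15, beside 10.6% and 7.14%. In A549 they were 1 higher and 1 lower at 6 h, beside 7.03% and 8.23%, and 0 in either direction at 24 h, beside 0.562% and 1.25%. From 6 h to 24 h in PBS, 0 members were called in A549 (background 0.109%) and 0 in H1975 (background 0.315%), while 2 and 3 of the 15 probes other than SCARA5 had an unadjusted p under 0.05. Between these PBS groups, 3 probes were higher without overlap and 0 lower in A549 (background 8.2% and 6.81%), and 2 were higher and 2 lower in H1975 (background 10.7% and 8.23%). The 2 higher in H1975 were SLC40A1 and SCARA5 probe 1, the latter on 6 h PBS arrays that its choice used.

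The median change of the 15 probes other than SCARA5 was 0.23 in H1975 at 24 h and 0.16 at 6 h, against 0.02 and 0.05 over all tested probes. The A549 medians of these 15 probes were 0.02 (24 h) and -0.02 (6 h), against -0.02 and -0.01. In limma's test of a difference between the lines, 0 of 17 passed at 24 h (background 0.193%), with 3 of the 15 other probes at an unadjusted p under 0.05. At 6 h 0 of those 15 passed (background 0.0336%), with 0 at an unadjusted p under 0.05. In the test of a difference between the times, 0 of 17 passed in A549 (background 0.0294%) and 0 of the 15 in H1975 (background 0.0042%), where 0 and 2 of the 15 had an unadjusted p under 0.05.

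**Figure D4:**
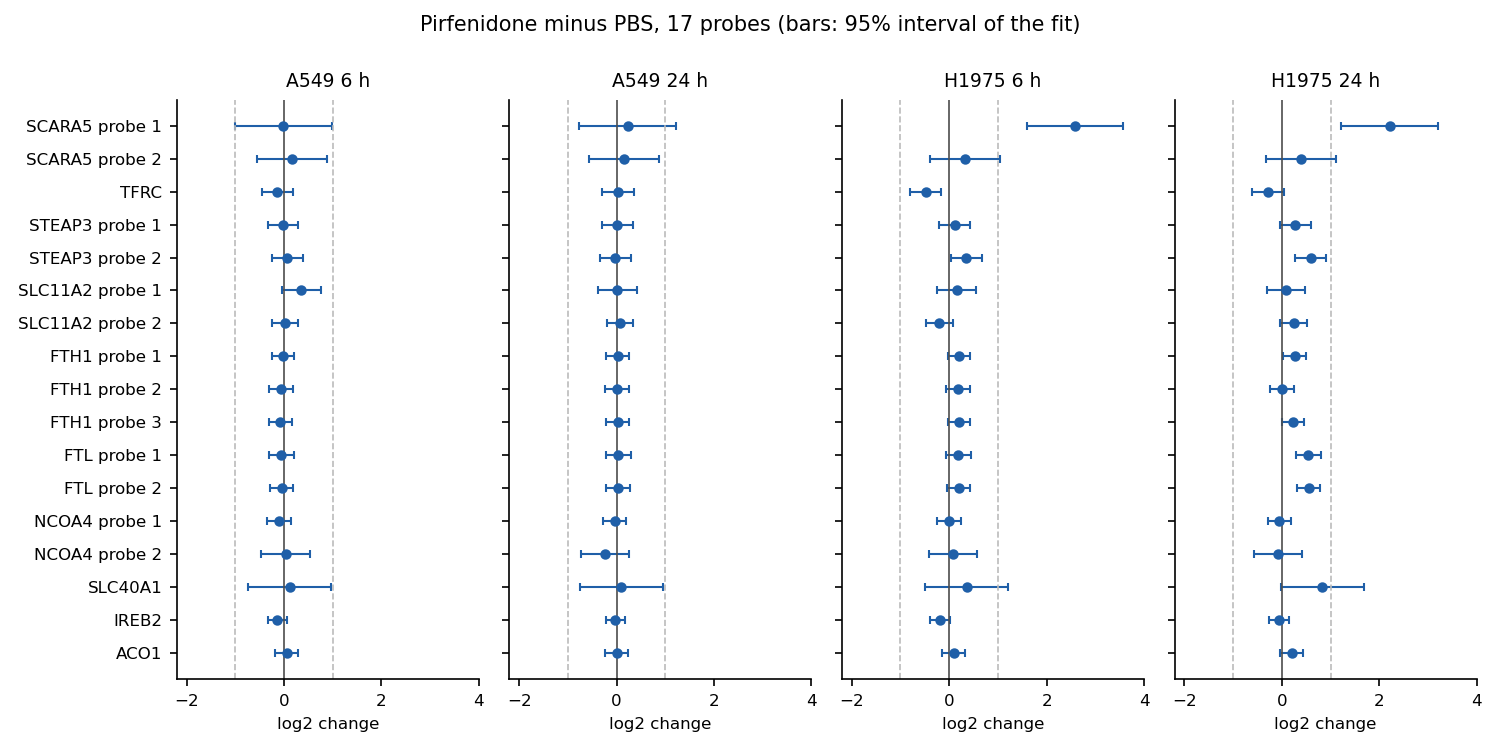
Log2 change of Pirfenidone minus PBS for all 17 member probes in the 4 comparisons; points are the fitted changes, bars their 95% intervals, and dashed lines mark the fold limit of 1 on the log2 scale. SCARA5 probe 1 lies at 2.58 and 2.22 in H1975 at 6 h and 24 h, and all other probes lie between -0.49 and 0.83.

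Between the lines with PBS, the share of member probes called was near that of all probes. In H1975 against A549 at 6 h, 1 of 17 probes was called higher and 6 lower, beside 32.4% of all probes called in either direction. At 24 h the counts were again 1 and 6, beside 32.9%. By adjusted p alone 12 of 17 passed at each time, beside 58.6% and 59.2% of all probes. The 6 lower were both SCARA5 probes, SLC40A1, both FTL probes and IREB2, and the higher one was STEAP3 probe 2. The H1975 PBS arrays of 6 h were used in the choice of SCARA5, and SCARA5 probe 2 passed the filter on dim probes only through an A549 group. Without SCARA5, 1 of 15 was called higher and 4 lower at each time. SLC40A1 was lower in H1975, with a log2 difference of -4.79 ± 0.41 at 6 h (27.7-fold, adjusted p = 6.15e-09) and of -4.64 ± 0.41 at 24 h, or -4.09 without the replicate 3 pair. FTL probe 2 was at 6.90, 6.79 and 6.75 in A549 and 4.43, 4.67 and 4.53 in H1975 at 6 h, a difference of -2.27 ± 0.11 (adjusted p = 2.65e-12), and at 24 h the difference was -2.15 ± 0.11. FTL probe 1 differed by -2.29 ± 0.12 and -2.14 ± 0.12. After 24 h of Pirfenidone the highest H1975 array reached 5.44 on FTL probe 2, still below the lowest of all A549 arrays at 6.70.

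FTH1 did not share the size of the FTL gap. Its probes 1 and 3 differed by -0.39 ± 0.11 and -0.34 ± 0.11 at 6 h (adjusted p = 0.00458 and 0.0127), and probe 2 by -0.24 ± 0.12 (adjusted p = 0.0867). IREB2 was at 2.12, 2.06 and 1.97 in A549 and 0.49, 0.69 and 0.65 in H1975 at 6 h, a difference of -1.44 ± 0.10 (adjusted p = 1.73e-10), and of -1.48 ± 0.10 at 24 h. ACO1 differed by -0.05 ± 0.11 at 6 h (adjusted p = 0.717). In the other direction, STEAP3 probe 2 was higher in H1975 by 1.72 ± 0.15 at 6 h and 1.63 ± 0.15 at 24 h (adjusted p = 9.70e-09 and 2.06e-08), while its probe 1 differed by 0.45 ± 0.15 and 0.37 ± 0.15 (adjusted p = 0.0157 and 0.0409), the latter 0.30 without the replicate 3 pair (adjusted p = 0.0937). NCOA4 probe 1 was higher by 0.40 ± 0.11 at 6 h (adjusted p = 0.00543). TFRC differed by 0.34 ± 0.16 at 6 h, which did not pass (adjusted p = 0.0660).

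**Figure D5:**
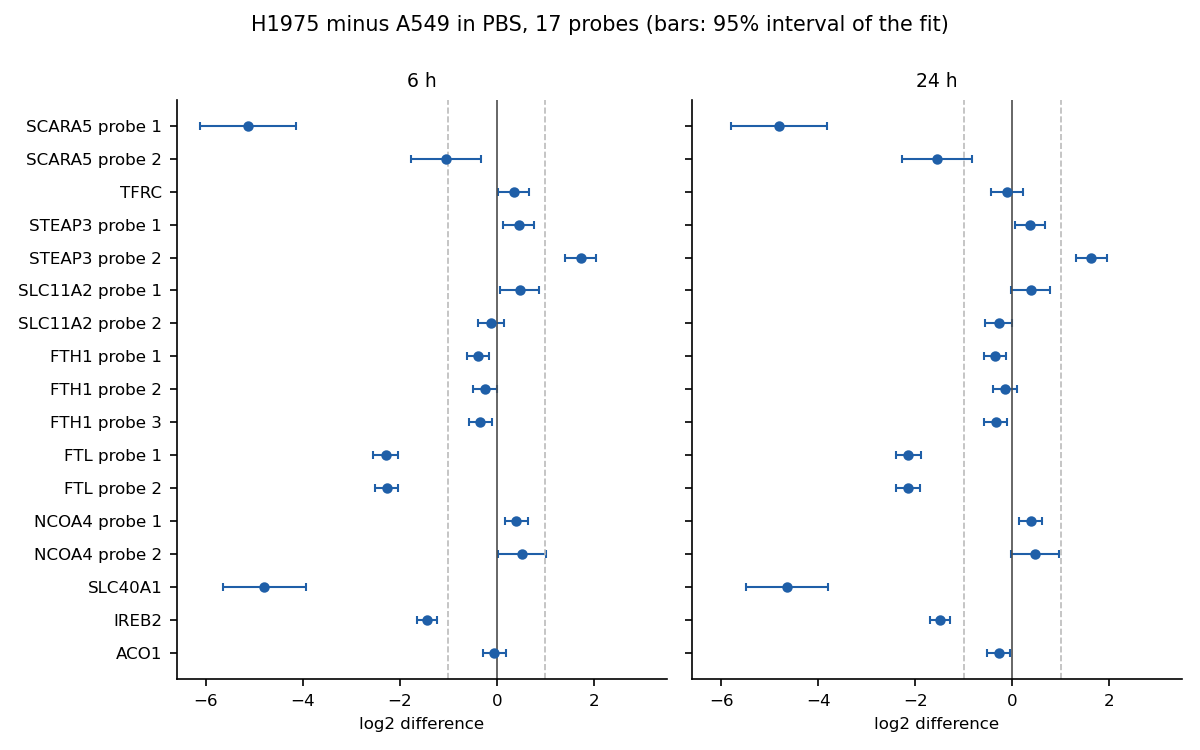
Log2 difference of H1975 minus A549 in PBS for all 17 member probes at 6 h and 24 h; points are the fitted differences, bars their 95% intervals, and dashed lines mark the fold limit of 1. SCARA5 probe 1 and SLC40A1 lie between -5.13 and -4.64, both FTL probes between -2.29 and -2.14, and STEAP3 probe 2 at 1.72 and 1.63.

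Other genes of iron and heme handling gave few changes with the drug. Of 72 such genes, 68 had a tested probe, and 0 were called in A549 at either time or in H1975 at 6 h. In H1975 at 24 h 1 was called, beside 1.89% of all probes, LTF, which encodes the iron-binding protein lactoferrin. It was not above background on any of the 12 A549 arrays. In H1975 at 24 h it gave -6.68, -6.86 and -6.84 with PBS and -6.44, -5.95 and -4.98 with Pirfenidone. All treated arrays were higher, with replicate 3 far above the other two, and the change was 1.01 ± 0.24 (adjusted p = 0.0183). Without that array the change was 0.60 and was not called (adjusted p = 0.0843), and the call was also lost without PBS replicate 2 or 3. By adjusted p alone, 2 of the 68 genes had a higher probe and 3 a lower one, beside 2.91% and 3.35% of all probes. The 68 genes had 91 tested probes, and a gene was counted if any of its probes passed. Shares of probes are thus only a rough measure for counts of genes. Chosen after their values were seen, these were LTF and the zinc and iron transporter SLC39A14 (0.48 ± 0.13, adjusted p = 0.0314) among the higher. The lower were the iron chaperone PCBP2 (-0.93 ± 0.21, adjusted p = 0.0165), the heme exporter FLVCR1 (-0.84 ± 0.22, adjusted p = 0.0291) and NUBP1, a factor of iron-sulfur cluster assembly (-0.55 ± 0.14, adjusted p = 0.0262). PCBP2 passed on 1 of its 3 tested probes and SLC39A14 on 1 of 2, while LTF, FLVCR1 and NUBP1 had 1 tested probe each. The median change of this list was -0.01 in H1975 at 24 h, against 0.02 over all probes. Between the lines in PBS, 4 of the 68 genes had a probe called higher in H1975 at 6 h: LTF, STEAP1, UROD and HSCB. At 24 h there were 5, these and STEAP4. At each time 14 had a probe called lower, beside 32.4% (6 h) and 32.9% (24 h) of all probes called in either direction. The 14 were the same at both times: BMP6, CP, CYBRD1, SLC48A1, SLC39A8, SLC22A17, LCN2, NEO1, BLVRB, ABCG2, FECH, PCBP2, SLC46A1 and ISCU. Some gaps were wide, at 6 h -5.75 and -6.18 on the probes of CYBRD1 and -4.14 and -4.29 on those of SLC48A1. BMP6 differed by -9.25 at 6 h and was above background on 0 of 3 H1975 arrays.

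SCARA5 belongs to the class A scavenger receptors, whose other members were looked at for comparison. MSR1 and COLEC12 were not above background on any array. MARCO, a receptor of macrophages, was above background on 12 of 12 H1975 arrays and 2 of 12 A549 arrays, and in H1975 it changed by -0.32 ± 0.27 at 6 h and -0.59 ± 0.27 at 24 h (adjusted p = 0.794 and 0.197). Between the lines in PBS, MARCO was higher in H1975, by 2.02 ± 0.27 at 6 h and 2.64 ± 0.27 at 24 h. At these times it was above background on 1 of 3 and 0 of 3 A549 arrays. SCARA3, unlike MARCO, shared the direction of the gap between the lines with SCARA5. Its probe that was above background on all 24 arrays was 255-fold lower in H1975 at 6 h (adjusted p = 3.85e-16) and 190-fold lower at 24 h, and it changed with Pirfenidone by 0.13 ± 0.23 at 6 h and -0.20 ± 0.23 at 24 h in H1975. No class A receptor other than SCARA5 was called with the drug.

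Over the 24 arrays, the 5 genes whose probes were most like SCARA5 probe 1 were TBC1D8 (Pearson r = 0.97), GATSL3 (0.97), NR3C1 (0.96), GLI4 (0.96) and ZKSCAN2 (0.96). The gap between the lines carries much of these values. Within the 12 arrays of 1 line r was 0.81 to 0.94 in A549 and 0.83 to 0.93 in H1975. The arrays of a group share their treatment, and the best of all tested probes were picked, so these values describe a likeness only. For SCARA5 probe 2 the nearest were TMEM189 (0.94), ISG20 (0.93), lnc-PLEKHH2-1 (0.93), GOSR1 (0.93) and SMOC1 (0.93), on a probe near background.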

How the data were processed

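Total RNA of 24 samples was hybridised to 1-colour Agilent arrays. The deposited scanner files hold the Cy3 intensity of each spot as the authors' Agilent Feature Extraction (11.5.1.1, hg19 positions) processed it, with background subtracted. The deposited table of processed log2 values has each probe centred near 0, with its normalization not given in the sources used here. It served as an alternative and its column medians were -0.162 to 0.155. Flagged outlier spots were dropped, log2 intensities were centred on each array's 75th percentile and spots of a probe were averaged. Probes well above background on all 3 arrays of a group were fitted with limma 3.58.1 in R 4.3.3, 1 model of 8 groups with 16 residual degrees of freedom. The study's methods name a moderated test with a permutation-based family-wise correction, for which Benjamini-Hochberg was used here. The fit was tested on simulated data. The alternatives were other background corrections, normalizations, filters, blocks, tests and thresholds, gene means and arrays left out. Named were all member probes, called genes of the iron list, the class A scavenger receptors and the 5 genes most like each SCARA5 probe. Members and lists were chosen with earlier results of these data known. The number of arrays limits the precision.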

Additional observations from a re-analysis of the deposited data

How the results depend on the processing

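The limits concern few calls. In H1975 at 24 h the count of called member probes was 1, and it was 0 with normexp, with Holm adjustment and with the methods' t-test after Benjamini-Hochberg, and 4 without the fold limit. Counts under the alternatives are not given for H1975 at 6 h, the comparison that chose SCARA5. Between the lines in PBS the count was 7 at both times, and 12 at both times without the fold limit. Over the 24 arrays left out in turn, the count ranged from 0 to 1 in H1975 at 24 h and from 6 to 7 between the lines at 6 h, and stayed at 7 between the lines at 24 h and at 0 in the 8 comparisons other than these and H1975 at 6 h. No called value changed sign under any alternative, and the cause of the lost calls was not tested. With the replicate number within each line as a block, the count in H1975 at 24 h was 1 (SCARA5 probe 1, adjusted p = 0.0161), and the block changed no count in any comparison. Same-numbered Pirfenidone and PBS arrays had correlations of deviations of 0.58 to 0.70 in A549 at 6 h and 0.46 to 0.72 in H1975 at 24 h, where a number stands for a run. In A549 at 24 h, also numbered by run, they were -0.10 to 0.39. In H1975 at 6 h, where numbers and runs differ, they were -0.48, 0.43 and -0.68 by number and 0.50 to 0.82 by run, so that the numbers did not pair the samples there. In H1975 the block by number therefore joined arrays of different runs, and its counts cannot show what pairing by run would give. Run and slide were also fitted as blocks, with a correlation of 0.45 within slides, while the main fit had no block. SCARA5 probe 1 at 24 h in H1975 was called under 33 of 38 alternatives, with changes from 1.67 to 2.39. Most of the 24 removals of 1 array took an array outside this comparison and left the change at 2.22. The count of 33 therefore says little about how firm the call is. Among removals within the compared groups, that of replicate 3 of either group lost the call. Low signal limits SCARA5 probe 2 and SLC40A1 in H1975.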
